A study of Mus musculus with 6 samples.

Results

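Lymphatic and blood endothelial cells (ECs) of mouse back skin were compared within the same single-cell RNA-seq libraries. The 2 classes held 7947 cells, 1848 lymphatic and 6099 blood ECs, of 17270 WT cells that passed the filters and of 27418 cell barcodes in all 6 libraries. A cell was kept with 200 to 5000 detected genes and under 10% of its UMIs from mitochondrial genes. A UMI (unique molecular identifier) counts 1 captured transcript. To enter either class a cell had no UMI of *Ptprc*, which encodes the leukocyte antigen CD45, and at least 1 of *Pecam1*, which encodes the endothelial adhesion molecule CD31. Lymphatic ECs carried a UMI of at least 2 of the 7 genes *Prox1*, *Nts*, *Cldn11*, *Mmrn1*, *Lyve1*, *Flt4* and *Reln*. Blood ECs carried no UMI of any of these 7 and a UMI of *Flt1* or *Cd34*. The UMIs of each class were summed per library, and these sums were compared across all genes except the 11 that formed the gates.

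The WT mice carried Cdh5-CreERT2, a tdTomato reporter and *Krt14*-H2BGFP on a mixed C57BL/6;CD1 strain, and were given tamoxifen (200 µg/g) at postnatal day 17. Cells positive for tdTomato and negative for GFP were sorted from dorsal skin at day 20, when hair follicles rest (telogen, 2 mice), and at day 32, when they grow (anagen, 2 mice), with 1 library per mouse. Each stage was sampled at 1 age, so stage and age cannot be told apart. The reporter marks cells in which the *Cdh5* (VE-cadherin) promoter drove Cre at the time of tamoxifen and their descendants, so ECs that escaped recombination were not sampled. A further 2 libraries were labelled Alk1 KO (Alk1 flox/flox with tdTomato and Cdh5-CreERT2, strain C57BL/6, day 25, telogen). Their mice were given the same tamoxifen dose at postnatal day 17. These libraries entered only as a repeat of the same comparison, and their genotype field reads wild type against their titles.

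The 4 WT libraries held 29851591 to 43317677 UMIs. Between 408 and 576 lymphatic and between 599 and 2789 blood ECs came from each library. Median depth was 4128 to 5748 UMIs per lymphatic and 5129 to 6637 per blood EC, and the class sums ranged from 2188041 to 15943750 UMIs. Between 2 and 13 cell barcodes were shared by any 2 of the 6 libraries.

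Lymphatic vessels take up interstitial fluid and antigen-presenting cells through blind-ended capillaries with loose button-like junctions and little basement membrane, and return them to the veins through valved collecting vessels. Blood capillaries of the skin deliver water, solutes and fatty acids under flow, and venules are the site where leukocytes leave the blood. Both endothelia share a common core of junction and receptor genes. Lymphatic identity is set by the transcription factor *Prox1* and maintained by VEGF-C signalling through the receptor encoded by *Flt4*.

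Members were chosen by their UMIs of the gate genes, so these genes are given as a description and with no test. *Prox1* had a UMI in 85.8% of lymphatic ECs, *Cldn11* (claudin-11) in 62.8%, *Mmrn1* (multimerin-1) in 56.7%, *Nts* (neurotensin) in 50.1%, *Flt4* in 46.2%, *Reln* (reelin) in 44.8% and *Lyve1* (a hyaluronan receptor) in 18.1%. In leukocytes of the same libraries (*Ptprc* positive, no *Pecam1* UMI, 2722 cells, median 9303 to 13698 UMIs per library), 20.4% had a UMI of *Lyve1*, which some macrophages express, and 0.331% to 2.94% had one of the other 6 genes. Of the 1848 lymphatic ECs, 389 carried exactly 2 of the 7 genes, 503 carried 3, 488 carried 4, 326 carried 5, 130 carried 6 and 12 carried all 7. A UMI of *Flt1* or *Cd34* was present in 17.5% of them. *Cdh5*, whose promoter drove the reporter, had a UMI in 76.0% of lymphatic and 93.7% of blood ECs, against 5.03% of the leukocytes.

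Cells at the edge of the gate were intermediate in *Pdpn* (podoplanin), a lymphatic gene that the rule did not use. *Pdpn* averaged 173 CPM (UMIs scaled to a common library total) in the 1459 cells with 3 or more of the 7 genes and 56.7 CPM in the 389 cells with exactly 2. It averaged 4.71 CPM in the 1245 cells with exactly 1, which entered neither class, and 2.41 CPM in blood ECs. The 337 cells with none of the 7 genes and no *Flt1* or *Cd34* UMI also entered neither class and averaged 17.7 CPM. *Plvap*, a gene higher in blood ECs that the rule did not use, averaged 359 CPM with 3 or more genes and 885 CPM with exactly 2. It averaged 1930 CPM with exactly 1, 1825 CPM in blood ECs and 369 CPM in the 337 cells. The part of edge cells in the lymphatic values of blood genes below was not tested.

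Transcripts of other skin cells moved with the classes. All 7 fibroblast markers and 6 of 8 pericyte and smooth muscle markers tested were lower in lymphatic than in blood ECs. No immune marker of 10 was called. Of 7 perineurial markers 2 were higher and 1 lower in lymphatic ECs. Over all genes tested 20.7% were higher and 21.1% lower. Summed fibroblast markers reached 88.7 to 648 CPM in lymphatic and 517 to 3311 CPM in blood ECs, with the highest blood values at telogen. Pericyte and smooth muscle markers summed to 25.4 to 226 CPM in lymphatic and 294 to 1506 CPM in blood ECs. The 4 hemoglobin genes and Alas2, the heme synthesis enzyme of red cells, summed to 2.74 to 15.6 CPM in lymphatic and 64.9 to 3701 CPM in blood ECs. Immune markers summed to 26.1 to 197 CPM in lymphatic and 28.9 to 193 CPM in blood ECs. Perineurial markers summed to 159 to 393 CPM in lymphatic and 142 to 206 CPM in blood ECs. The part of these cells in the results below was not tested, but each comparison was repeated without cells that carried UMIs of 2 or more fibroblast genes, of 2 or more pericyte genes or at least 5 hemoglobin UMIs, a setting chosen after seeing the data that kept 1736 lymphatic and 5348 blood ECs. In it the fibroblast sums were 24.8 to 64.5 CPM in lymphatic and 20.2 to 48.9 CPM in blood ECs, while the pericyte sums were 17.7 to 47.9 and 169 to 256 CPM. This setting did not select on perineurial genes, which summed to 129 to 241 CPM in lymphatic and 107 to 132 CPM in blood ECs. Of the genes named below, 16 moved by over 1.5-fold away from 0 in it, by 0.60 to 2.75 on the log2 scale and most for *Pdpn*, *Sema3d* and *Fibin*.

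Of 12286 genes tested, 5137 (41.8%) differed between lymphatic and blood ECs at an adjusted p under 0.05 with a fold over 1.3, by edgeR's quasi-likelihood test with library as block and Benjamini-Hochberg adjustment. 2545 genes (20.7%) were higher and 2592 (21.1%) lower in lymphatic ECs, and the median log2 difference of all genes was -0.011. In 4342 genes (35.3%) the 4 lymphatic and 4 blood values did not overlap. The classes were drawn on marker genes of the same cells, so genes that travel with those markers differ in part through the choice of cells. With library as block, the p-values rest on how the lymphatic minus blood difference varied between the 4 mice, 2 per stage. Each gene group below is read against these shares, and differences are log2, lymphatic minus blood, ± SE with n = 4 libraries. Values per library are normalized CPM in the order telogen 1, telogen 2, anagen 1, anagen 2.

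**Figure D1:**
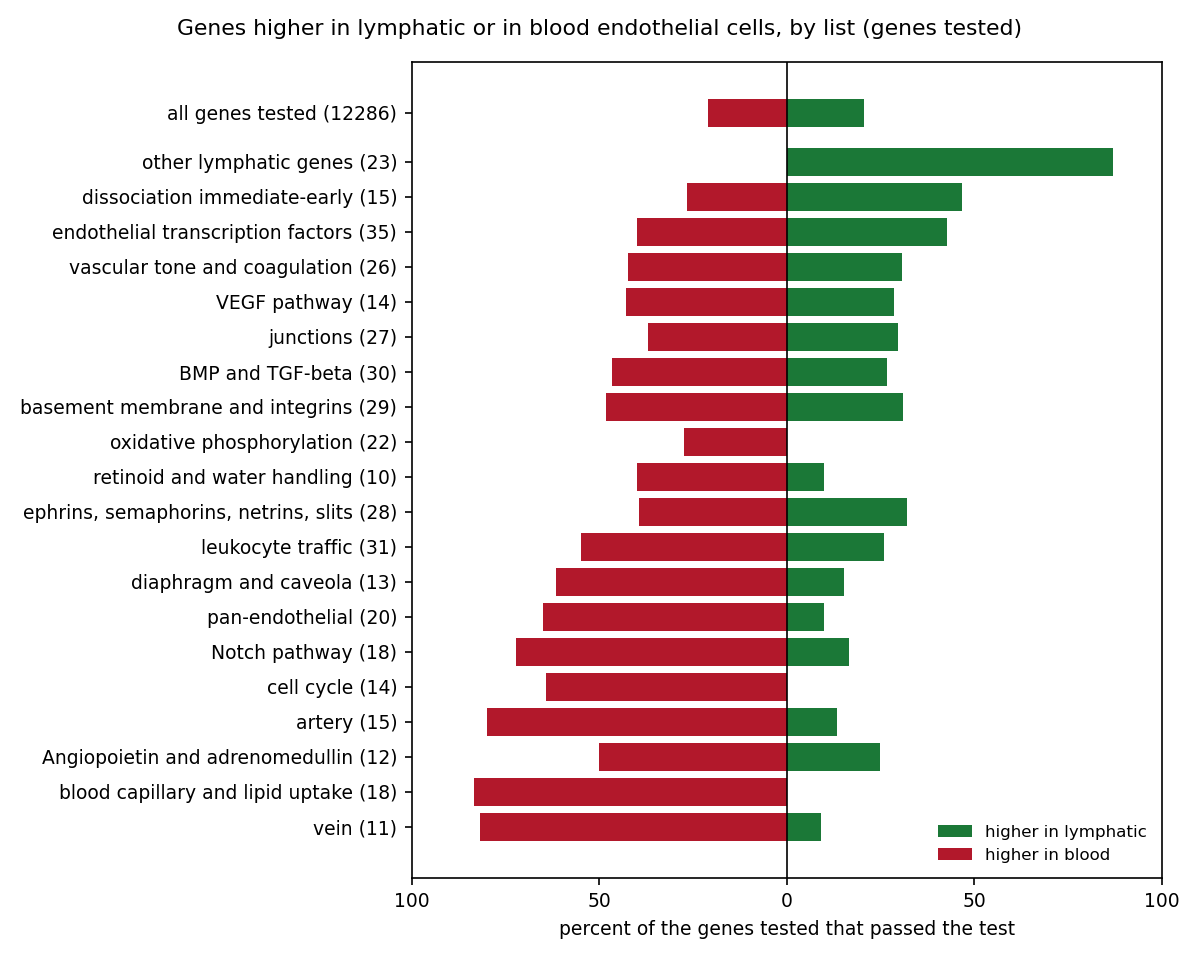
Percent of the tested genes of each list (vertical axis, number tested in brackets, ordered by median difference) that were called higher in lymphatic ECs (green bars, to the right) or in blood ECs (red bars, to the left). All 12286 genes stand at 20.7% and 21.1%, other lymphatic genes have no bar on the blood side, and blood capillary and lipid uptake genes have none on the lymphatic side.

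Genes known from lymphatic endothelium, gate genes aside, were mostly on the lymphatic side, and 20 of 23 tested were higher in lymphatic ECs with none lower (median 3.35). *Ccl21a*, the chemokine that guides CCR7-bearing dendritic cells into lymphatics, was at 5667, 3096, 4763 and 9285 CPM in lymphatic and 2.37, 1.4, 3.81 and 4.31 CPM in blood ECs. The classes did not overlap, and the difference was 10.81 ± 0.18 (adjusted p = 3.12e-10). This is the copy ENSMUSG00000094686, and reads of the near-identical Ccl21 copies may be split between them. *Pdpn*, a mucin-like glycoprotein that binds the platelet receptor CLEC-2, was at 165, 99.4, 159 and 178 CPM in lymphatic and 1.08, 5.6, 0.748 and 2.12 CPM in blood ECs, a difference of 6.30 ± 0.37 (adjusted p = 3.95e-07). Without cells carrying fibroblast, pericyte or erythroid transcripts this difference was 9.06, and without the *Pecam1* requirement it was 2.89. *Foxc2*, a transcription factor of lymphatic valves, stood at 101, 96.1, 79.3 and 73.9 CPM against 4.52, 4.2, 2.18 and 2.67 CPM, and no blood value came near the lymphatic ones.

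*Maf* (c-MAF, a transcription factor) differed by 5.36 ± 0.19, *Tbx1* (a T-box factor) by 5.63 ± 0.15, *Pard6g* (a cell polarity protein) by 7.47 ± 0.24 and *Sema3d* (a secreted semaphorin) by 6.88 ± 0.16. *Itga9*, the integrin subunit needed for valve leaflets, was 6.49-fold higher, and *Stab1* (stabilin-1, a scavenger receptor) was 5.1-fold higher. *Fgl2*, a membrane prothrombinase, was at 1795, 1468, 1282 and 1055 CPM in lymphatic and 80.2, 91.5, 49.5 and 69.5 CPM in blood ECs. *Fxyd6*, a modulator of the sodium pump, was 26.2-fold higher, the tetraspanin *Cd9* 2.58-fold and the mechanosensitive channel *Piezo1* 1.52-fold. *Thy1* and *Mrc1* (the mannose receptor) differed by 1.93 and 3.35. The 3 members not called included *Timp3* and *Hoxd8*, with differences of 0.27 and 0.29.

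**Figure D2:**
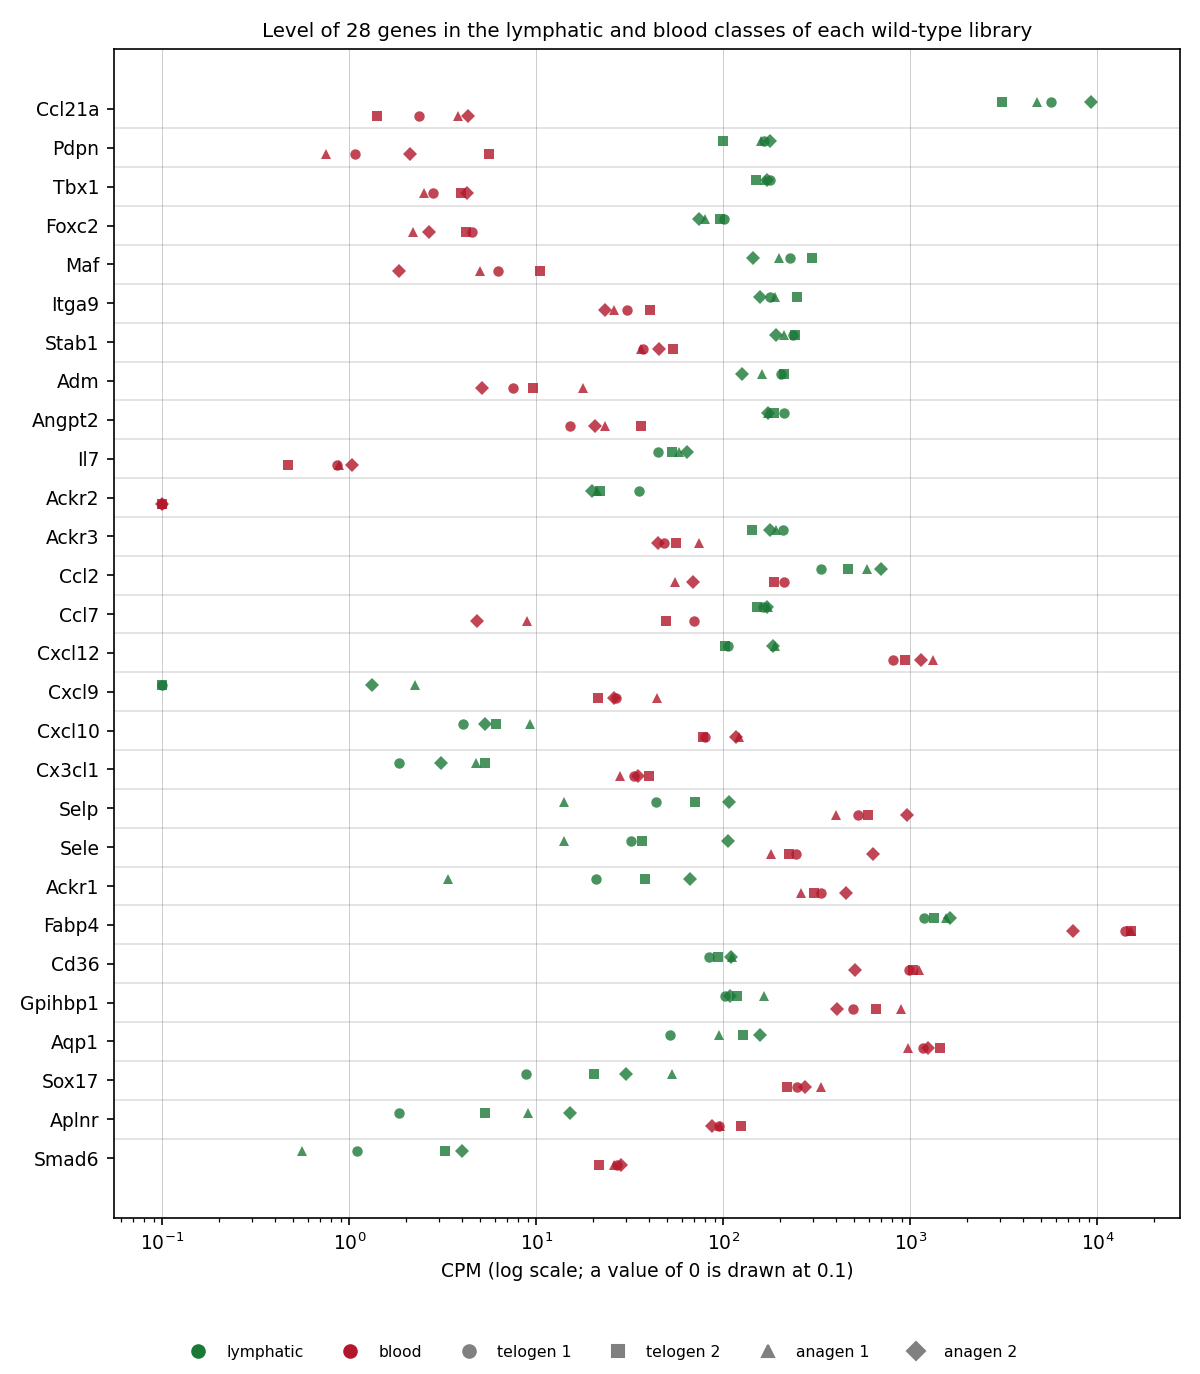
Normalized CPM on a log axis of 28 genes in lymphatic and blood ECs of each of the 4 WT libraries, 1 point per library and class, with values of 0 drawn at the left edge. Genes from *Ccl21a* to *Ccl7* sit higher in lymphatic ECs and genes from *Cxcl12* to *Smad6* higher in blood ECs, with the points of the classes apart in each gene shown.

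Endothelial transcription factors split evenly, with 15 of 35 higher and 14 lower in lymphatic ECs (median 0.067). *Foxp2*, a forkhead factor, was at 112, 141, 99.5 and 93.3 CPM in lymphatic and 1.29, 1.4, 0.544 and 0.753 CPM in blood ECs, a difference of 6.94 ± 0.16. *Nfatc1*, a calcineurin-dependent factor of lymphatic and heart valves, was 4.92-fold higher. *Nr2f2* (COUP-TFII), which acts in venous and lymphatic fate, was 2.88-fold higher and *Gata2* 2.75-fold higher. The flow-responsive factors *Klf2* and *Klf4* were 1.74-fold and 2.69-fold higher in lymphatic ECs, and *Foxp1*, *Foxc1* and *Foxo1* were 2.49-, 2.36- and 1.66-fold higher.

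On the other side stood factors of arterial and capillary endothelium. *Sox17*, an arterial factor, was at 8.82, 20.4, 53 and 30.1 CPM in lymphatic and 249, 218, 331 and 275 CPM in blood ECs, a difference of -3.36 ± 0.25 (adjusted p = 1.93e-06). Even the highest lymphatic value lay under the lowest blood value. The partners *Meox2* and *Tcf15*, which drive fatty acid transport in capillaries, differed by -1.98 and -2.57, and *Epas1* (HIF-2α) by -2.20. *Tbx3* differed by -3.01. *Sox18* and *Sox7*, relatives of *Sox17*, differed by -0.57 and -0.62. Among ETS factors, *Erg* and *Ets1* were lower, with differences of -0.67 and -0.68, whereas *Fli1* was not called (-0.18, adjusted p = 0.121). Where no *Pecam1* UMI was required *Sox18*, *Sox7*, *Erg* and *Ets1* were at -0.17, -0.20, -0.30 and -0.33 and were no longer called. *Lef1*, a Wnt effector, had 104 UMIs in blood and 3 in lymphatic ECs pooled over the WT libraries. This was a ratio of 9.40 (95% counting interval 3.13 to 46.3, without the library block).

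Ligands and receptors of the VEGF family were divided between the classes, with 4 of 14 higher and 6 lower in lymphatic ECs (median -0.14). *Vegfc*, the ligand of the receptor encoded by *Flt4*, was at 2.2, 6.11, 8.69 and 8.4 CPM in lymphatic and 68, 59.1, 65.3 and 59.8 CPM in blood ECs (difference -3.30 ± 0.23, adjusted p = 1.23e-06). The classes were far apart in all 4 mice. *Vegfa*, *Vegfb* and *Pgf*, further ligands of the family, were higher in lymphatic ECs by 1.49, 1.99 and 1.36, the last with overlapping values. *Nrp1*, the co-receptor for VEGF-A, was at 21.7, 40.7, 44.6 and 56.2 CPM in lymphatic and 332, 347, 374 and 304 CPM in blood ECs. Its paralogue *Nrp2*, a VEGF-C co-receptor, did not pass the test (-0.0091 ± 0.09, adjusted p = 0.947), and neither did *Kdr*, which encodes VEGFR2 (-0.20 ± 0.11, adjusted p = 0.171). The feedback inhibitors *Spry4* and *Spry1* and the phosphatase *Ptprb* (VE-PTP) were lower, with differences of -2.21, -1.36 and -1.73.

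Of 12 angiopoietin, apelin and adrenomedullin genes, 3 were higher and 6 lower in lymphatic ECs (median -1.46). *Angpt2*, the context-dependent TIE2 ligand, was at 210.2, 186, 173 and 172 CPM in lymphatic and 15.1, 36.2, 23.4 and 20.6 CPM in blood ECs, a difference of 2.99 ± 0.18. *Adm*, the peptide adrenomedullin, was at 203, 212, 161 and 126 CPM against 7.53, 9.57, 17.7 and 5.13 CPM, a difference of 4.12 ± 0.23 (adjusted p = 3.27e-07). Both ligands were separated in every library. The receptor *Tie1* was 1.53-fold higher in lymphatic ECs, while *Tek*, which encodes TIE2, differed by -1.18. The adrenomedullin receptor *Calcrl* was not called (0.02, adjusted p = 0.877), nor was its partner *Ramp2* at the fold required (-0.29, adjusted p = 0.0151), but the alternative partner *Ramp3* differed by -2.07. Apelin and its receptor, *Apln* and *Aplnr*, differed by -3.58 and -3.71.

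The Notch pathway leaned to blood ECs, with 13 of 18 genes lower and 3 higher in lymphatic ECs (median -1.04). Without cells carrying other-cell transcripts 10 of 16 were lower, and 2 of the members, *Notch3* and *Heyl*, are also pericyte genes. Among ligands, *Jag2*, *Jag1*, *Dll4* and *Dll1* differed by -2.23, -1.34, -0.81 and -0.56, and the last 2 were at -0.41 and -0.11, no longer called, where no *Pecam1* UMI was required. Of the receptors, *Notch4* was at 5.51, 4.89, 8.69 and 7.08 CPM in lymphatic and 39.2, 44.8, 54.4 and 51.1 CPM in blood ECs (-2.84 ± 0.14), and *Notch1* differed by -0.43 (-0.36 and under the fold required without anagen 2, and -0.079 and not called with no *Pecam1* UMI required). *Notch2* ran the other way, at 20.2, 17.5, 30.6 and 18.1 CPM in lymphatic and 2.58, 2.1, 2.52 and 2.74 CPM in blood ECs, a difference of 3.13 ± 0.21 (adjusted p = 8.34e-07). None of these receptors overlapped between classes. The targets *Hey1* and *Nrarp* and the glycosyltransferase *Mfng* were lower, with differences of -1.26, -1.81 and -3.34, whereas the target *Hes1* and the DNA-binding partner *Rbpj* were higher by 1.36 and 0.95.

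In the BMP and TGF-beta pathway 14 of 30 genes were lower and 8 higher in lymphatic ECs (median -0.17). *Acvrl1*, which encodes ALK1, the endothelial receptor for BMP9 and BMP10, was at 73.5, 69.6, 70.9 and 93.3 CPM in lymphatic and 182, 144, 152 and 177 CPM in blood ECs, a difference of -1.09 ± 0.10 (adjusted p = 6.16e-06). Its co-receptor *Eng* (endoglin) differed by -1.52 ± 0.10 and the type II receptor *Bmpr2* by -0.40 (-0.37 without telogen 1 and -0.31 without anagen 2, no longer called in either). The inhibitory *Smad6*, at 1.1, 3.26, 0.561 and 3.98 CPM in lymphatic and 27.1, 21.7, 25.9 and 28.3 CPM in blood ECs, differed by -3.66 ± 0.32, and *Smad7* by -2.47 ± 0.12. These 5 genes were all higher in blood ECs, and of them only *Bmpr2* overlapped between the classes. The BMP targets *Id1* and *Id3* were lower, with differences of -1.09 and -0.47, as were the ligands *Bmp2* and *Bmp6* by -1.65 and -1.80 and the inhibin subunit *Inhbb* by -2.99. Genes higher in lymphatic ECs were the signal transducer *Smad1* (1.44 ± 0.10), the ligands *Bmp4* (1.02), *Tgfb1* (0.44, but 0.35 and not called without telogen 2) and *Tgfb3* (3.20), and the receptor *Tgfbr2* (0.59).

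**Figure D3:**
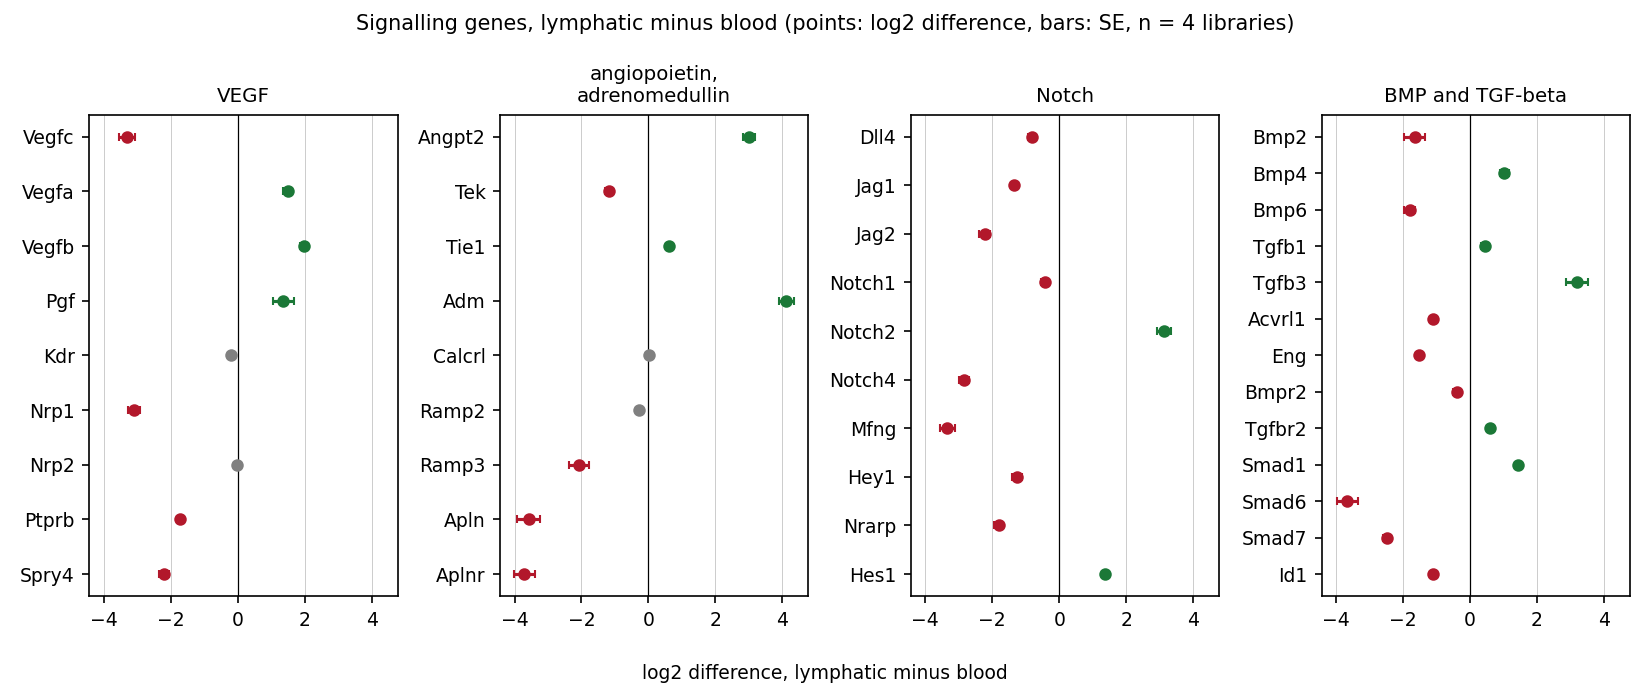
Log2 difference (lymphatic minus blood ECs, horizontal axis) with its SE for selected genes of the VEGF, angiopoietin and adrenomedullin, Notch, and BMP and TGF-beta lists, 1 panel per list, in green where called higher in lymphatic ECs, red where called higher in blood ECs and grey where not called. *Adm*, *Notch2* and *Tgfb3* lie furthest to the lymphatic side, and *Aplnr*, *Vegfc*, *Mfng* and *Smad6* far to the blood side.

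Genes known from arteries, veins and blood capillaries were compared between lymphatic ECs and the whole blood class, which was not split by vessel type. Of 15 artery genes 12 were lower in lymphatic ECs and 2 higher (median -1.43), of 11 vein genes 9 were lower and 1 higher (median -2.91), and of 18 capillary and lipid uptake genes 15 were lower and none higher (median -2.42). The arterial connexin *Gja5* was at 0.735, 1.63, 0.841 and 3.1 CPM in lymphatic and 31, 36.4, 22.9 and 16.7 CPM in blood ECs (-4.14 ± 0.33), with no overlap. Elastin (*Eln*) and the matrix calcification inhibitor *Mgp*, which mural cells also make, differed by -2.11 and -3.40. The exceptions were the netrin receptor *Unc5b* and the ligand *Efnb2*, higher in lymphatic ECs by 2.02 and 0.49 (0.34 and no longer called without telogen 2), and among vein genes the ephrin-B2 receptor *Ephb4*, higher by 0.96.

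Genes of fatty acid handling were higher in blood ECs. *Fabp4*, a fatty acid binding protein, was at 1181, 1340.3, 1545 and 1636 CPM in lymphatic and 14030.1, 15117, 15192 and 7398 CPM in blood ECs, a difference of -3.14 ± 0.21 (adjusted p = 8.21e-07). Its paralogue *Fabp5*, the transporter *Cd36* and the lipoprotein lipase anchor *Gpihbp1* differed by -3.09, -3.15 and -2.28, and none overlapped between the classes. Anagen 2 had the lowest blood value of *Fabp4*, *Cd36* and *Gpihbp1*. Carbonic anhydrase 4 (*Car4*) differed by -3.94 and *Rgcc*, a cell-cycle regulator of capillary cells, by -2.65. The water channel *Aqp1* was at 51.8, 127, 95.3 and 157 CPM in lymphatic and 1173, 1446, 967 and 1241 CPM in blood ECs, and *Aqp7*, which also carries glycerol, differed by -3.24. Of 10 genes of retinoid and water handling 4 were lower and 1 higher, with the retinol binding protein *Rbp7* lower at -2.85 and the retinaldehyde dehydrogenase *Aldh1a3* higher by 2.67.

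Diaphragm and caveola genes were mostly lower in lymphatic ECs, with 8 of 13 lower and 2 higher (median -0.68). *Plvap*, the protein of fenestral and caveolar diaphragms, was at 285, 283, 552 and 672 CPM in lymphatic and 1387, 1219.7, 2198 and 2766 CPM in blood ECs, a difference of -2.10 ± 0.09 (adjusted p = 4.63e-08). The classes were clear of each other, and both were higher at anagen. *Emcn* (endomucin) and *Esm1* differed by -1.32 and -2.78. The caveola components *Cav1* and *Cavin1* were lower, with differences of -0.84 and -0.66, while *Cavin2* did not reach the fold required (-0.28, adjusted p = 0.0462). The membrane-bending protein *Pacsin2* was instead 2.89-fold higher in lymphatic ECs.

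Of 27 cell junction genes 8 were higher and 10 lower in lymphatic ECs (median -0.17). *Cldn5*, the main endothelial claudin, was at 2638, 2760.5, 2494 and 2588 CPM in lymphatic and 1132, 1003, 906 and 1004 CPM in blood ECs, a difference of 1.38 ± 0.08 (adjusted p = 3.87e-07), and *F11r* (JAM-A) and *Jup* (plakoglobin) were 1.67- and 2.13-fold higher. *Jam2* and *Jam3* (JAM-B and JAM-C) ran the other way, with *Jam2* at 13.6, 34.2, 29.4 and 47.8 CPM against 310.2, 281, 289 and 367 CPM (-3.37 ± 0.21) and *Jam3* lower at -2.27. *Esam*, a further immunoglobulin-type adhesion molecule, differed by -2.21 ± 0.09, and *Cldn15* by -3.06. Among gap junction proteins *Gja1* (connexin 43) and *Gja5* (connexin 40) were lower, with differences of -1.07 and -4.14. The polarity protein *Pard3* was 13-fold higher in lymphatic ECs. *Cdh5* itself was at 386, 395, 404 and 345 CPM in lymphatic and 782, 828, 893 and 735 CPM in blood ECs, a difference of -1.08 ± 0.08.

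Of 29 basement membrane and integrin genes 14 were lower and 9 higher in lymphatic ECs (median -0.27). Blood ECs had more of the main network components: *Col4a1* and *Col4a2* (collagen IV) differed by -1.51 ± 0.08 and -1.77 ± 0.09, perlecan (*Hspg2*) by -1.87, *Sparc* by -2.74 ± 0.11, its relative *Sparcl1* by -3.26 and collagen XV (*Col15a1*) by -3.30. Pericytes also make several of these, and without cells carrying other-cell transcripts 15 of 29 genes were lower. Fibronectin (*Fn1*), a ligand of the valve integrin, was at 816, 794, 691 and 438 CPM in lymphatic and 196, 249, 164 and 139 CPM in blood ECs (1.87 ± 0.10, adjusted p = 3.01e-07). Every lymphatic value exceeded every blood value. Also higher were the laminin chain *Lama4* (0.99), agrin (*Agrn*, 0.88), the integrin subunit *Itgav* (2.38 ± 0.11) and the minor collagen IV chain *Col4a5* (4.20 ± 0.23). *Lamb3* had 45 UMIs in lymphatic and 3 in blood ECs pooled over the WT libraries, a ratio of 55.3 (95% counting interval 17.8 to 278, without the library block). The collagen-binding subunits *Itga1* and *Itga2* were lower, with differences of -2.09 and -3.75.

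Of 31 genes of leukocyte traffic 17 were lower and 8 higher in lymphatic ECs (median -0.62). Adhesion molecules of the blood vessel wall were among the lower genes. P-selectin (*Selp*) was at 43.7, 70.5, 14 and 107 CPM in lymphatic and 528, 590.1, 401 and 961 CPM in blood ECs, a difference of -3.58 ± 0.24 (adjusted p = 8.34e-07), and E-selectin (*Sele*) and *Vcam1* differed by -2.91 ± 0.16 and -2.41. None overlapped, and both classes of anagen 2 were the highest for the selectins. *Icam1* differed by -0.60 and *Icam2* by -0.98. The T-cell chemoattractants *Cxcl9* and *Cxcl10*, at 4.04, 6.11, 9.25 and 5.31 CPM in lymphatic and 79.6, 78, 121 and 117 CPM in blood ECs for *Cxcl10*, differed by -4.95 and -3.97, and the membrane-bound *Cx3cl1* and the CXCR4 ligand *Cxcl12* by -3.13 and -2.89.

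Atypical chemokine receptors, which bind chemokines without classical signalling, were divided by member. *Ackr1*, a venular receptor, was at 20.9, 37.9, 3.36 and 65.9 CPM in lymphatic and 334, 305, 259 and 453 CPM in blood ECs (-3.67 ± 0.37). *Ackr2*, the scavenger of inflammatory CC chemokines, had 270 UMIs in lymphatic and 0 in blood ECs, pooled over the WT libraries. Under these gates its level was at least 332-fold higher in lymphatic ECs (from a floor of 3 counts over the blood class). Over the alternatives its log2 difference ranged from 6.64, with no *Pecam1* UMI required, to 10.3. *Ackr3*, a scavenger of CXCL12 and adrenomedullin, was at 209, 143, 191 and 177 CPM in lymphatic and 48.4, 56, 73.9 and 45 CPM in blood ECs (1.70 ± 0.14). *Ackr4*, the CCL21 scavenger, was low throughout and 3.21-fold higher in lymphatic ECs. The 4 members thus stood apart in opposite directions.

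Soluble factors on the lymphatic side began with *Il7*, the survival cytokine of lymphocytes, at 44.5, 52.9, 57.7 and 64.1 CPM in lymphatic and 0.861, 0.467, 0.884 and 1.03 CPM in blood ECs (6.00 ± 0.17, adjusted p = 5.6e-09). *Ccl2* and *Ccl7*, monocyte chemoattractants, were higher by 2.20 ± 0.42 (adjusted p = 0.00176) and 2.94 ± 0.56 (adjusted p = 0.0016). Where no *Pecam1* UMI was required these 2 turned to -0.50 and -0.90 and were no longer called, and without cells carrying other-cell transcripts they were 3.33 and 4.57. For sphingosine 1-phosphate, the lipid that draws lymphocytes into lymph, the kinase *Sphk1* was 3.15-fold higher in lymphatic ECs, the exporter *Spns2* was not called at the fold required (0.33, adjusted p = 0.0417) and the receptor *S1pr1* was lower at -0.62 (-0.28 and not called with no *Pecam1* UMI required).

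Of 28 guidance molecules 9 were higher and 11 lower in lymphatic ECs (median -0.57). The secreted semaphorin *Sema3a* was at 101, 107, 72.3 and 85.8 CPM in lymphatic and 0, 0.934, 0.544 and 0.274 CPM in blood ECs (7.60 ± 0.25), and *Sema3g* at 2.2, 9.77, 8.13 and 17.7 CPM in lymphatic and 123, 109.5, 107 and 125 CPM in blood ECs (-3.68 ± 0.27). These paralogues were apart in opposite directions in all 4 mice. *Sema7a*, the ephrin receptor *Epha4* and the endothelial Slit receptor *Robo4* were lower, with differences of -2.90, -2.26 and -2.18, and the semaphorin receptor *Plxnd1* by -0.77. Netrin 1 (*Ntn1*) and netrin 4 (*Ntn4*) were 5.79- and 2.19-fold higher in lymphatic ECs.

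Among genes of vascular tone and coagulation 8 of 26 were higher and 11 lower in lymphatic ECs (median -0.036). Von Willebrand factor (*Vwf*), which tethers platelets, was at 20.6, 15.1, 33.4 and 65.5 CPM in lymphatic and 207, 288, 235 and 405 CPM in blood ECs (-3.16 ± 0.21). The vasoconstrictor endothelin 1 (*Edn1*), angiotensin-converting enzyme (*Ace*) and cyclooxygenase 1 (*Ptgs1*) were lower, with differences of -2.49, -2.88 and -2.06 and the nitric oxide synthase *Nos3* by -0.42 (-0.37 and not called without anagen 1). The plasminogen activator *Plat* was higher in lymphatic ECs, at 299, 273, 546 and 344 CPM against 63.9, 67.3, 46.7 and 39.8 CPM (2.75 ± 0.23). The thrombin receptor *F2r* and coagulation factor VIII (*F8*) were higher by 1.73 and 1.50.

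Genes usually taken as pan-endothelial were unequal, with 13 of 20 lower and 2 higher in lymphatic ECs (median -0.87). *Clec14a* and *Cd93*, surface receptors of the matrix protein *Mmrn2*, and *Mmrn2* itself differed by -2.92 ± 0.17, -2.80 ± 0.14 and -2.51 ± 0.16. *Egfl7* and *Ecscr* did not reach the call (0.19 and 0.12). *Erg*, *Eng*, *Tek* and *Cdh5* are given above.

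Among the genes outside these groups that differed most without overlap, lymphatic ECs had *Apobec2* (a member of the cytidine deaminase family) at 127, 50.9, 100.1 and 57.9 CPM, *Dtx1* (the Notch-associated ubiquitin ligase Deltex-1) at 149, 129.9, 131 and 120.3 CPM, and *Slc38a4* (an amino acid transporter) at 107, 79.4, 72.9 and 89.3 CPM. Each was at or below 0.861 CPM in every blood sum. *Sh3gl3* (endophilin-A3), *Fibin* and the BMP family member *Gdf10* differed by 8.31, 7.42 and 6.96, and the uncharacterised *Gm14964* by 6.32. On the blood side the hemoglobin genes *Hbb-bs*, *Hbb-bt*, *Hba-a1* and *Hba-a2* differed by -7.88 to -7.24, with near-identical copies that may share reads, and without cells of 5 or more hemoglobin UMIs *Hbb-bs* differed by -1.61. After them came *Serpinf1* (PEDF, an inhibitor of vessel growth, -3.98), *C1qtnf9* (a secreted relative of adiponectin, -3.90), *Syt15* (a synaptotagmin, -3.66) and *Tmem252* (-3.64).

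The difference between the classes was compared between stages with a class by stage term. It was called for 27 of 12286 genes (0.22%), 26 of them higher in lymphatic relative to blood ECs at anagen than at telogen (0.212%) and 1 lower (0.00814%). With 2 mice per stage the count was unstable: it was 13 to 579 on leaving out 1 library, 579 of them without anagen 1, 316 without anagen 2, 21 without telogen 1 and 13 without telogen 2. *Ccl2* was at 334, 466, 583 and 698 CPM in lymphatic and 209.8, 188, 55.2 and 68.9 CPM in blood ECs, so that lymphatic values were higher and blood values lower at anagen (stage term 2.38 ± 0.22, adjusted p = 0.00222). *Ccl7* stayed between 151 and 174 CPM in lymphatic ECs, while its blood values were 69.3, 49.3, 8.91 and 4.79 CPM (stage term 3.25 ± 0.26, adjusted p = 0.00162). Only these 2 of the 27 were called under all 16 alternatives. In 21 of the 27 genes both telogen blood values lay above both anagen blood values, and in 14 both anagen lymphatic values lay above both telogen ones. The 27 were chosen on these same values. How many of all 12286 genes had either pattern was not counted, so these counts only describe the called genes.

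Other called genes of the stage term had the following values. *Mgp* was at 57, 98.6, 181 and 364 CPM in lymphatic ECs, lower at telogen than at anagen, and at 1453, 1919, 967 and 1982 CPM in blood ECs (stage term 2.04 ± 0.20, adjusted p = 0.00222). *Igfbp5*, a binding protein of insulin-like growth factors, was at 811, 810.5, 688 and 439.6 CPM in lymphatic and 136, 131, 31.5 and 13.1 CPM in blood ECs (stage term 2.14 ± 0.22). *Ptx3* (pentraxin 3) and *Gm13889* had stage terms of 2.74 and 2.06. Summed fibroblast markers of blood ECs were at 2853 and 3311 CPM at telogen and 517 and 761 CPM at anagen. Without cells carrying other-cell transcripts 7 of the 27 were still called, *Ccl2* (1.78), *Ccl7* (3.98), *Mgp* (2.38), *Plat* (1.34) and the mitotic genes *Cenpe*, *Cenpf* and *Ube2c*, while *Igfbp5* was at 0.74 (adjusted p = 0.78) and *Ptx3* at 2.39 (adjusted p = 0.18). *Sfrp5*, a secreted Wnt inhibitor that is also a perineurial marker, was the 1 called gene in the other direction (-1.71).

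**Figure D4:**
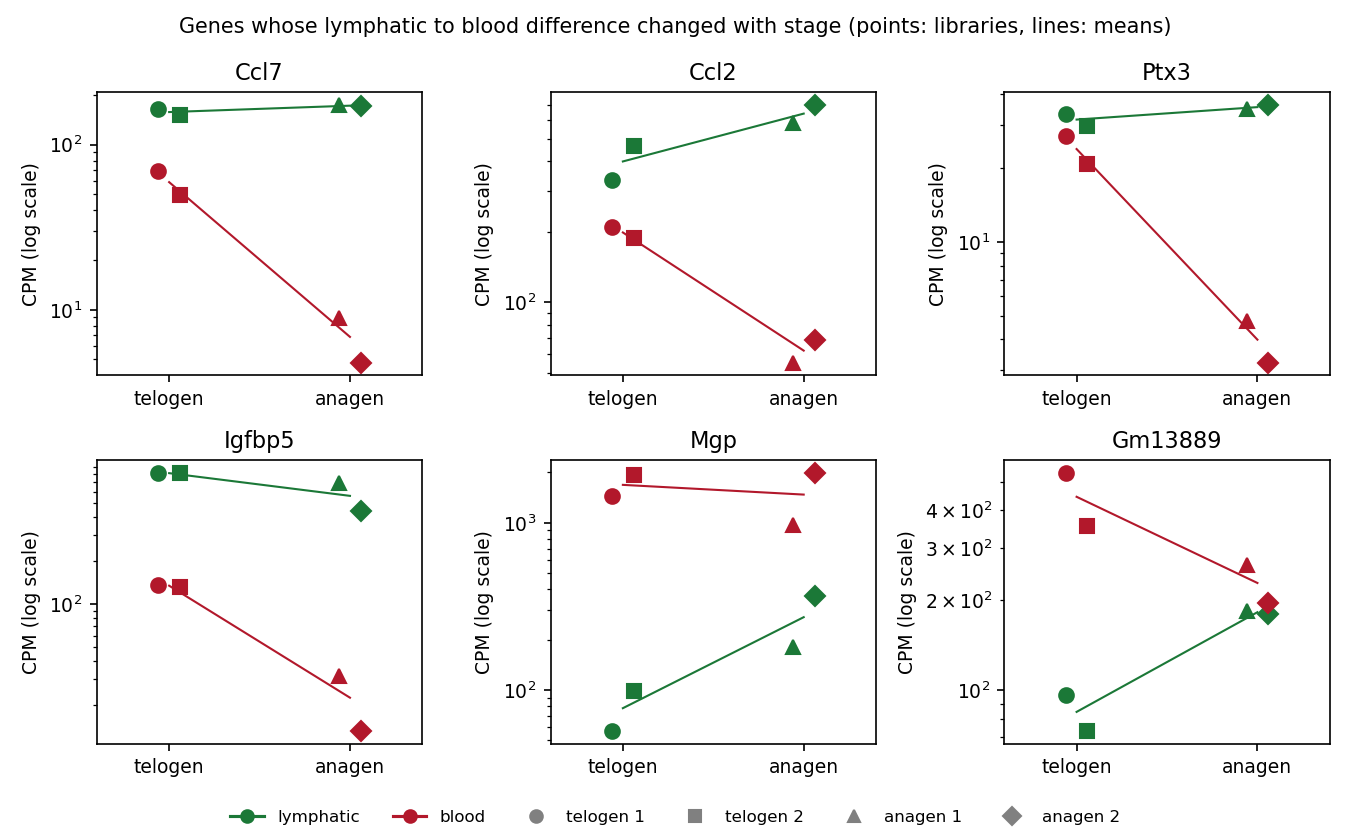
Normalized CPM on a log axis of 6 genes of the stage comparison in lymphatic and blood ECs at telogen and anagen, 1 point per library (n = 2 per stage) and lines joining the means. *Ccl2* and *Ccl7* are lower in anagen than in telogen blood ECs, while *Mgp* is higher in anagen than in telogen lymphatic ECs.

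Lymphatic ECs made up 40.5% (95% exact binomial interval 37.5 to 43.6) and 41.0% (38.0 to 44.1) of the gated cells in the telogen libraries. The anagen libraries held 21.5% (20.0 to 23.1) and 13.6% (12.5 to 14.9). The stages did not overlap, and the difference was -23.2 percentage points with an exact two-sided permutation p = 0.33, the smallest that 2 against 2 mice can give. The share is of sorted cells that met the gates, so the sort, the recovery of each cell type and the vessels themselves cannot be told apart.

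Lymphatic ECs also varied among themselves. The 334 cells with a *Lyve1* UMI, a gene of initial lymphatic capillaries, were compared with the 1514 lymphatic ECs without one, library by library. Of 9479 genes tested 931 (9.82%) were called, 416 higher (4.39%) and 515 lower (5.43%) in cells with a *Lyve1* UMI, and 1012 (10.7%) did not overlap. Median depth was 4471 to 6497 UMIs in cells with and 3956.5 to 5547 in cells without a *Lyve1* UMI, so the split is weighted to deeper cells, and thinned to 1500 UMIs per cell the comparison called 362 of 3045 genes tested (11.9%). A cell without a *Lyve1* UMI may still express the gene. *Lyve1* is also 1 of the 7 gate genes, so the 2 sides met unequal gates. Cells with a *Lyve1* UMI needed at least 1 of the other 6 genes, and cells without one needed at least 2. Genes that travel with those 6 can therefore be higher in cells without a *Lyve1* UMI through the choice of cells, and this part was not tested. In anagen 2, 17.1% of the cells with and 5.95% of those without a *Lyve1* UMI were among the cells of the highest doublet scores, and without such cells 1001 genes were called. In this comparison the normalized values are again ordered telogen 1, telogen 2, anagen 1, anagen 2.

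Cells with a *Lyve1* UMI had more *Ccl21a*, *Ackr2* and *Ptx3* and less of the valve factor *Foxc2*. *Ccl21a* was at 16188, 11209, 22334 and 29114 CPM in cells with and 2173, 1183, 1442 and 4609 CPM in cells without a *Lyve1* UMI (3.19 ± 0.15, adjusted p = 4.08e-09). *Ackr2* was at 117, 92, 110.4 and 67.6 CPM against 7.75, 5.27, 4.08 and 8.57 CPM (3.96 ± 0.24), and *Ptx3*, a soluble pattern receptor, at 111, 134, 166 and 155 CPM against 7.23, 4.75, 9.85 and 7.43 CPM (4.24 ± 0.18). None of these 3 overlapped. *Mrc1*, *Stab1*, *Thy1* and *Pdpn* were higher by 2.68, 1.02, 1.71 and 1.63, *Fgl2* by 1.14, the VEGF-C co-receptor *Nrp2* by 1.66, and the transcription factors *Meox1* and *Nr2f2* by 1.50 and 0.70. Macrophages also make *Mrc1* and *Stab1*, and of 10 immune markers *Cd74* (1.42) and *H2-Aa* (0.95) were higher and *Pf4* (-1.74) lower in cells with a *Lyve1* UMI, with summed immune markers of 20.5 to 361 CPM in cells with and 27.4 to 231 CPM in cells without one. The part of immune transcripts was not tested. Also by the naming rule, *Piezo2* (a mechanosensitive channel), *Serpina3n*, *Fndc1* and *Creb5* were higher by 3.30, 3.84, 3.60 and 2.84.

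On the other side the valve factor *Foxc2* was at 31.8, 20.9, 31.5 and 24.8 CPM in cells with and 130.2, 119, 90 and 89.1 CPM in cells without a *Lyve1* UMI (-1.95 ± 0.18, adjusted p = 3.77e-06). *Gata2*, *Itga9* and *Fn1*, which are likewise known from valves, were lower, with differences of -1.07, -0.65 and -1.69, the connexin 37 gene *Gja4* by -1.49, *Foxp2* and *Foxc1* by -1.58 and -1.47, and the flow-responsive *Klf2* and *Nos3* by -0.77 and -1.16. The other members of the naming rule were *Gdf10* (-3.72), the transcriptional regulator *Hes6* (-3.55), *Chchd10* (-3.27), *Tmem45a* (-3.18), *Ahsg* (fetuin-A, -3.17), osteopontin (*Spp1*, -2.99), *Fibin* (-2.98) and *Wnt4* (-2.91).

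By list, 9 of 23 lymphatic genes were higher and 5 lower, 8 of 25 basement membrane and integrin genes higher and 7 lower, and 7 of 26 leukocyte traffic genes higher and 3 lower. Collagen IV (*Col4a1*, 1.13) and *Lama4* (0.88) were higher in cells with a *Lyve1* UMI, and the laminin chain *Lama5* (-1.44) and the laminin-binding *Itga3* (-1.85) lower. Of the diaphragm and caveola genes 5 of 13 were higher and none lower, and of 15 immediate-early genes, which respond to stress of cell isolation as well as to signals in tissue, 10 were lower and 1 higher, among them *Jun* (-0.87) and *Egr1* (-1.07). Over all genes 4.39% were higher and 5.43% lower. No Notch gene of 15 was called, and 15 genes are too few to set this apart from those shares.

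**Figure D5:**
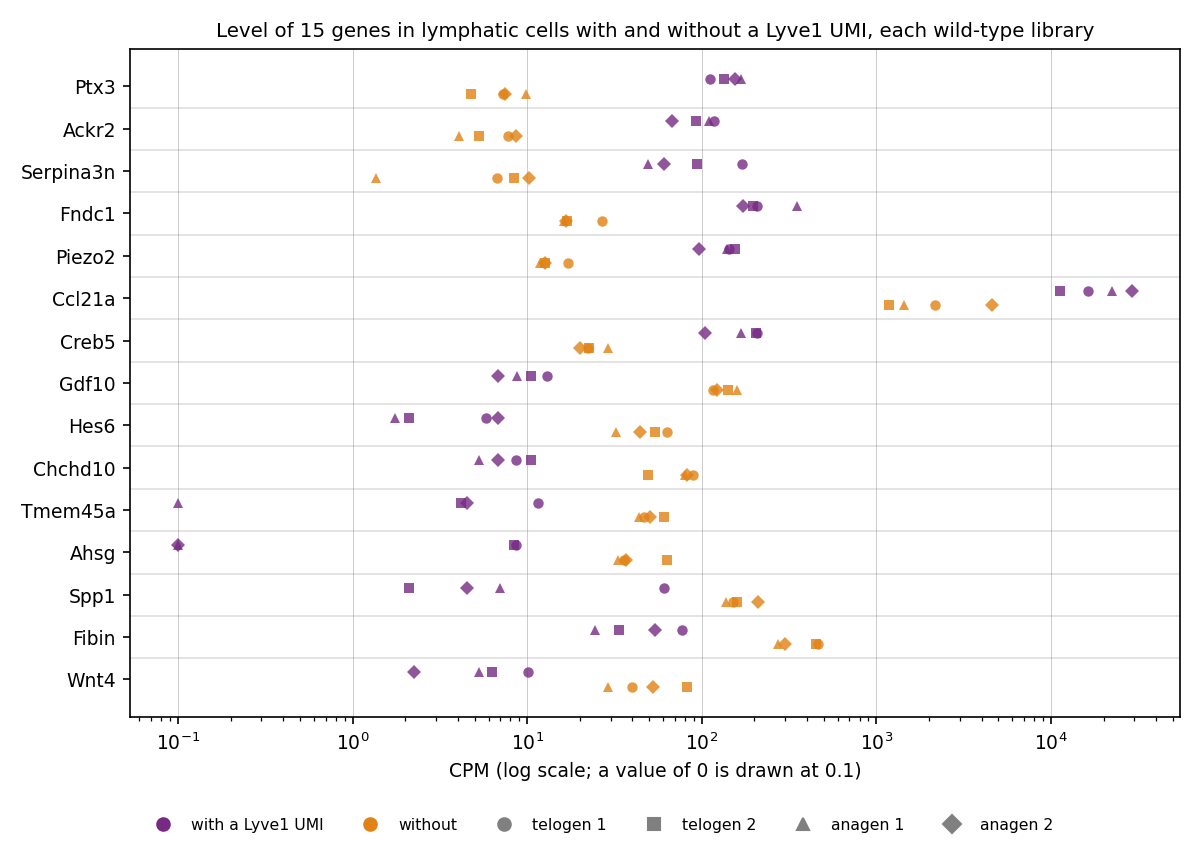
Normalized CPM on a log axis of 15 genes in lymphatic ECs with and without a *Lyve1* UMI, 1 point per WT library, with values of 0 drawn at the left edge. Genes from *Ptx3* to *Creb5* sit higher in cells with a *Lyve1* UMI, and genes from *Gdf10* to *Wnt4* higher in cells without one.

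The comparison was repeated with the same gates in the 2 libraries labelled Alk1 KO, which held 1121 lymphatic and 964 blood ECs. Genes that travel with the gate genes therefore share a direction with WT in part through the choice of cells. The mice differed from the WT mice in strain and age as well as in label. Their lymphatic ECs also had another mix of gate genes. *Lyve1* had a UMI in 48.1% and 47.2% of them against 18.1% in WT, and *Reln* in 86.7% and 82.5% against 44.8%. *Cldn11* had one in 31.4% and 28.2% against 62.8%. *Acvrl1*, the targeted gene, was at 75.3 and 50.9 CPM in lymphatic and 159 and 153 CPM in blood ECs of these libraries, against 77.5 and 74.1 CPM and 185 and 151 CPM at WT telogen (here CPM of the class sums without TMM scaling). The sources used here do not say whether the counted 3′ end lies in the deleted exons. What these values mean for the label was not tested. Of 10999 genes tested 4033 (36.7%) were called. Of the genes higher in WT lymphatic ECs 2268 were tested, 1877 (82.8%) had the same sign and 1137 were called in the same direction, and of the genes lower 2165 were tested, 1844 (85.2%) had the same sign and 1359 were called in the same direction. Over all 10812 genes tested in both, 7269 (67.2%) had the same sign.

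Among the genes described above most directions were the same in these libraries under the same gates. *Ccl21a* differed by 10.49, *Pdpn* by 5.78, *Il7* by 8.24, *Adm* by 2.38, *Notch2* by 2.82 and *Fn1* by 0.89. *Sox17* differed by -5.03, *Smad6* by -1.60, *Vegfc* by -4.39, *Fabp4* by -3.82, *Selp* by -3.43 and *Acvrl1* by -1.45. *Ccl2* and *Ccl7* differed by 1.50 and 1.74. Of the 179 genes named here and called in WT, 177 were tested, 164 had the same sign, 152 were called in the same direction, and 13 had the opposite sign, 5 of them past the call. The BMP targets *Id1* and *Id3*, lower in WT lymphatic ECs, differed by 0.57 and 1.12 in the libraries labelled Alk1 KO, and the Notch target *Hey1* by 0.42. *Pgf* and *Tgfbr2*, higher in WT lymphatic ECs, differed by -4.02 and -0.64. Whether these differences are other than in WT was not tested, and strain, age, label and the mix of lymphatic cells cannot be told apart.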

How the data were processed

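Single-cell RNA was captured with 10x Chromium 3′ v3 chemistry and sequenced on a NextSeq-500. The authors aligned reads and counted UMIs with Cell Ranger 6.0.1 against its mm10 mouse reference (tool and build per the submitters' processing notes), and the deposited matrices hold raw UMI counts per gene and cell. No ambient RNA or doublets were removed before deposit as far as the sources used here say. Cells were gated as stated above, and UMI counts were summed per library and class. Sums were tested with edgeR 4.0.16 (R 4.3.3, filterByExpr, TMM, quasi-likelihood F test, Benjamini-Hochberg over all genes tested), with library as block, and normalized CPM were taken from the same fit. Genes were called where the fold exceeded 1.3 and the adjusted p lay under 0.05. Both classes of a library come from 1 mouse, and their deviations from the class means correlated at 0.29 to 0.48. The members and lists were chosen with earlier results of these data known.

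Named genes were those of the lists, the 12 with the largest change in each direction between the classes that were called, did not overlap and had a mean log2 CPM of at least 5, the 6 with the smallest p in each direction for the stage term, and the 8 with the largest change in each direction for the *Lyve1* split. A few genes under this rule are not reported here. Shares have 95% exact (Clopper-Pearson) binomial intervals. Intervals and floors cover counting error only. Scrublet (scanpy 1.11.5) marked 2 to 58 cells per library, too few to be taken as working, so no doublet was removed in the results given, and removing the 5% of cells with the highest scores per library was an alternative. The others were RLE scaling, DESeq2 1.42.0, no filter on low counts, no replicate block, leaving out each library, stricter cell filters, other gates and thinning each cell to 1500 UMIs. The tests were tried on simulated counts with known changes.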

Additional observations from a re-analysis of the deposited data

Results flagged for a closer look

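The difference between lymphatic and blood ECs was itself other at anagen than at telogen in 27 genes by the class by stage term of edgeR's quasi-likelihood test (2 mice per stage). Values are the term on the log2 scale, anagen minus telogen. *Sfrp5* was at -1.71. Chemokines and matrix or secreted proteins were *Ccl2* at 2.38, *Ccl7* at 3.25, *Ptx3* at 2.74, *C3* at 4.03, *Mgp* at 2.04, *Abi3bp* at 1.88, *Efemp2* at 1.73, *Igfbp5* at 2.14, *Angptl2* at 2.15, *Serpine2* at 1.90, *Plat* at 1.21, *Pkdcc* at 1.85 and *Gkn3* at 3.59. Mitotic genes were *Cenpe* at 3.93, *Cenpf* at 3.02 and *Ube2c* at 4.76. The others were *Nupr1* at 1.16, *Phlda1* at 1.34, *Fxyd1* at 1.79, *Fam107b* at 1.84, *Lhfp* at 1.86, *Gm13889* at 2.06, *Meis2* at 2.40, *Tmem45a* at 2.73, *Hsd11b1* at 4.18 and *Ptgs2* at 4.84. Of these, 20 were not called, or did not pass the low-count filter, without cells carrying fibroblast, pericyte or erythroid transcripts, and the part of such cells was not tested beyond that.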

How the results depend on the processing

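The count of 5137 genes between lymphatic and blood ECs was 2645 at a fold over 2 and 2495 with cells thinned to 1500 UMIs, where fewer genes were tested. It ranged from 4079 to 5770 under the other alternatives, with 4330 to 5159 on leaving out 1 library. The count of 931 for the *Lyve1* split was 458 at a fold over 2, 516 with DESeq2, 443 with no replicate block, 573 at 500 to 5000 genes and under 5% mitochondrial UMIs, 362 with thinned cells and 676 to 827 on leaving out 1 library. The stage count of 27 was 192 with no filter on low counts, 4 with no replicate block, 12 with at least 3 of the 7 lymphatic genes, 297 with no *Pecam1* UMI required, 16 with thinned cells, 11 with blood ECs chosen on *Flt1* alone (added after seeing the data) and 13 to 579 on leaving out 1 library. The causes were not tested. The lymphatic share at anagen minus telogen was -18.0 to -28.1 percentage points under the other gates and -19.2 to -27.1 on leaving out 1 library. Of 179 named genes called, 153 were tested and called under all 16 alternatives and 9 under 15, with no test in the other one. The fold over 2 was not among these 16, and named genes with smaller differences would not pass it. The size of differences also moved over the alternatives. *Fabp4* ranged from -5.18 to -2.91, *Cd36* from -6.07 to -2.92, *Smad6* from -8.05 to -3.23 and *Gja5* from -10.3 to -3.81. On the lymphatic side *Pdpn* ranged from 2.89 to 9.06 and *Ccl21a* from 9.20 to 11.1. With no *Pecam1* required, calls were lost for *Bmpr2* (-0.31), *Dll1* (-0.11), *Dll4* (-0.41), *Erg* (-0.30), *Ets1* (-0.33), *Notch1* (-0.079), *S1pr1* (-0.28), *Sox7* (-0.20) and *Sox18* (-0.17). They were also lost for *Efnb2* (0.29), *Notch1* (-0.35) and *Bmpr2* (-0.33) at the stricter cell filter, for *Efnb2* (0.26), *Bmp4* (0.77), *Mki67* (-0.72) and *Tgfb1* (0.26) with thinned cells, and for *F11r* (0.74), *Sox18* (-0.55) and *Efnb2* (0.53) with no replicate block. Signs turned for genes near 0 or with *Pecam1* not required: *Calcrl* was -0.0286 with no filter, -0.054 without telogen 1, -0.042 without lymphatic cells bearing *Flt1* or *Cd34*, -0.012 without the highest doublet scores, -0.028 with *Flt1* alone and -0.12 without other-cell transcripts. *Nrp2* was -0.071 to 0.067 on leaving out 1 library, 0.19 at the stricter cell filter, 0.058 with 3 of 7 genes and 0.18 with no *Pecam1* required. With no *Pecam1* required *Ccl2* was -0.50, *Ccl7* -0.90, *Fli1* 0.17, *Kdr* 0.21, *Nos3* 0.0054 and *Ramp2* 0.071. In the stage term *Ptgs2* was -1.90 without anagen 1 and 5.19 without anagen 2, and with thinned cells *Abi3bp* was -0.12 and *Sowahc* 0.11. Of simulated 2-fold and 4-fold changes, 74% and 91% were recovered between the classes, but 28% and 69% for the stage term. Unlike the data, the simulated counts had no library effect and only 100 genes changed at each size. Recovery in the real tests can therefore differ.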

Other observations

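Of 14 cell cycle genes 9 were lower in lymphatic than in blood ECs and none higher (median -1.22, against 21.1% lower over all genes). Thymidylate synthase (*Tyms*) was at 26.1, 29.7, 23.3 and 40.7 CPM in lymphatic and 72.5, 62.8, 60.5 and 88 CPM in blood ECs (-1.26 ± 0.11), with no overlap. *Mki67*, the proliferation antigen Ki-67, was at 2.57, 7.33, 11.8 and 15.9 CPM in lymphatic and 19.8, 28.7, 28.6 and 12.7 CPM in blood ECs (-1.24 ± 0.36, adjusted p = 0.0166), with values that overlapped, and its adjusted p was 0.0553, 0.0948 and 0.0833 without telogen 1, telogen 2 and anagen 1.

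Of 15 immediate-early genes, which respond to stress of cell isolation as well as to signals in tissue, 7 were higher and 4 lower in lymphatic ECs (median 0.32). *Jun* was at 3793, 3515, 3003 and 2863 CPM in lymphatic and 1679, 1406, 1511 and 1463 CPM in blood ECs (1.11 ± 0.09), and *Atf3* differed by 0.71 ± 0.09, whereas *Ier3* was lower by -1.25. Of 22 oxidative phosphorylation genes 6 were lower and none higher, 27.3% called against 41.8% over all genes (median -0.30), among them *Ndufa4* (-0.59) and *Cox5a* (-0.53).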
